A study of Mus musculus with 8 samples.

Results

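Glycolysis in the mouse tongue was described here through 10 genes, the glucose transporter Slc2a1 and the enzyme genes Hk1, Hk2, Pfkp, Aldoa, Gapdh, Pgk1, Eno1, Pkm and Ldha, out of 32285 features counted in single-cell 3' RNA-seq libraries. The members were taken by their symbols, which matched 11 feature rows, because a second row also carried the symbol Aldoa. That second row was not tested, and the values below are those of ENSMUSG00000030695. Cells came from tongue epithelium, sorted for viability, 15 days after transgene induction, with 2 libraries in each of 4 groups.

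All mice carried Krt14-CreERT and LSL-rtTA and, by the study's methods, a tetON_H2B-GFP reporter, and all received tamoxifen in the tongue and doxycycline in the diet. N mice carried no further transgene, E mice carried tetON_E6-E7, a pair of viral oncogenes that inactivate tumour suppressors, Y mice carried tetON_YAP1S127A (a constitutively active form of the transcriptional co-activator YAP), and EY mice carried both. The mice were littermates of 8 to 16 weeks, balanced by sex. The Krt14 promoter limits recombination to keratin 14-expressing cells and their progeny, so the immune cells below are not expected to carry an induced transgene, and N mice still carry the recombinase, the transactivator and the reporter. The methods give 2 mice per genotype, although the title of N2 bears 2 animal numbers and that library may pool animals. The p-values therefore measure the spread between these libraries.

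Glucose enters cells through facilitative transporters such as Slc2a1 and is phosphorylated by hexokinases, which holds it in the cell. Phosphofructokinase commits the sugar to glycolysis, and the later enzymes split it, oxidise it and pass its phosphate to ADP, ending in pyruvate, which lactate dehydrogenase can reduce to lactate. Several of these genes are known targets of hypoxia-inducible factor, which binds a short element with the core ACGTG or GCGTG, and YAP acts on genes through TEAD proteins.

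Of 42550 barcodes, 25199 passed the filters on cells. Epithelial cells were those with at least 0.5% of UMIs (unique molecular identifiers, which count captured transcripts) from Krt5, Krt14, Krt15, Krt13 and Krt6a and none from Ptprc, and they numbered 12957, from 170 in EY1 and 415 in N2 to 4055 in E1. A further 4461 cells were myeloid and 5001 were T cells. Epithelial UMIs summed to between 2454816 (EY1) and 55154619 (E1) per library, and each member had 137 to 80431 epithelial UMIs in a library, at least 17 in myeloid cells and at least 20 in T cells. Library pairs shared 2 to 19 barcodes. Levels are given as CPM, the counts of a gene relative to the summed UMIs of a cell class, with library totals scaled by TMM factors that correct for composition. These are 3'-end counts, and levels are compared between libraries and not between genes.

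The epithelial label was checked on the 7 listed markers that the gates of the cell classes did not use, Cdh1, Dsp, Epcam, Itga6, Krt4, Perp and Trp63. They summed to 3101 to 3752 CPM in the epithelial cells of libraries without the YAP transgene and to 3724 to 5331 CPM in those with it, with none at 0, against 165 to 788 CPM in myeloid and 130 to 293 CPM in T cells. Markers of other cell types also had counts in the epithelial cells. Neutrophil markers summed to 4.50 to 36.5 CPM without the YAP transgene and to 41.3 to 2244 CPM with it, highest in EY1, and none of 8 was at 0 in every library. Myeloid markers summed to 17.3 to 26.1 CPM without it and 16.7 to 233 CPM with it, fibroblast markers to 700 to 1278 CPM and 29.7 to 821 CPM, and T cell markers to 7.03 to 13.5 CPM and 5.53 to 34.0 CPM. The neutrophil list, which includes S100a8 and S100a9, summed to 666 CPM in EY2, where the myeloid list summed to 28.7 CPM. The part of all these markers in the results was not tested. The groups also differed in the share of cells with at least 2 UMIs of 9 cell-cycle markers, which was 52.5% and 58.8% in N, 56.9% and 55.0% in E, 53.3% and 62.5% in Y, and 74.1% and 93.2% in EY. That cut takes no account of depth per cell. Scaled, 10 cell-cycle markers (these and Hmgb2) summed to 1883 and 1005 CPM in N and 2153 and 934 in E. They summed to 1502 and 1957 CPM in Y and 1491 and 2597 in EY, so only EY2 stood above the rest.

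The promoters below are those of the 4 members with the lowest adjusted p for the YAP transgene in epithelial cells, and they are shown because they let a reader see the hypoxia-response and TEAD letters near genes that rose together. Each run holds the 250 bases before a RefSeq start (GRCm38.p6), read 5' to 3' along the gene, with matches in capitals. The motifs were ACGTG and, separately searched, GCGTG for the hypoxia response element core, and for the TEAD core GGAATG, each on both strands. For a gene with several starts, the most upstream one whose window shares at most 30 bases with an annotated exon is shown. That rule was settled after the matches had been counted.
Aldoa, chr7:126799255-126799504, minus strand: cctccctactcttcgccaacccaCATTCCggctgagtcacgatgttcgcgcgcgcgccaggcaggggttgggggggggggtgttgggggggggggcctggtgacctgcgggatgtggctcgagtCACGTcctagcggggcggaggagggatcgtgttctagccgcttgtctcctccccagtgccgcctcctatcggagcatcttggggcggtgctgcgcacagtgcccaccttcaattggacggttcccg
Pgk1, chrX:106186850-106187099, plus strand: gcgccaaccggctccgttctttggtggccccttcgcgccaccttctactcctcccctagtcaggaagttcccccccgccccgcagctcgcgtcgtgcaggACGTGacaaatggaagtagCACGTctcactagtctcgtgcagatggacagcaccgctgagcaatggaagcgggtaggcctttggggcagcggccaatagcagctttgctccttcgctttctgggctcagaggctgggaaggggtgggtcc
Pfkp, chr13:6648772-6649021, minus strand: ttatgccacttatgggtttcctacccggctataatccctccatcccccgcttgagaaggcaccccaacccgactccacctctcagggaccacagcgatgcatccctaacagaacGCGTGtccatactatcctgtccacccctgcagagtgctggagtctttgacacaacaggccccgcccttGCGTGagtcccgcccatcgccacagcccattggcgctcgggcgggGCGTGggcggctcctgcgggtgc
Ldha, chr7:46845554-46845803, plus strand: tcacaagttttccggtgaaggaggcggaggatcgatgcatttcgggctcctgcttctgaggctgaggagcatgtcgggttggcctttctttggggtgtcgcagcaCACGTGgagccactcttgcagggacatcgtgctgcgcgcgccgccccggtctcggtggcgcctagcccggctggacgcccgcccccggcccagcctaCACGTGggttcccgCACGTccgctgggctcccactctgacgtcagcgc

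The Ldha window held 5 matches to ACGTG, counted on both strands, so that each palindromic CACGTG counts on both. The Pgk1 window held 2 matches to ACGTG and the Pfkp window 3 to GCGTG. The Aldoa window held 1 ACGTG and 1 GGAATG, whereas the window of the most upstream Aldoa start, at chr7:126800448-126800697, of which 193 bases lie in an annotated exon, held no match to either kind and is not printed. Over all 17 RefSeq promoters of the 10 members, some of which overlap, 14 held ACGTG or GCGTG, and each member had at least 1 such promoter. Of 32851 promoters of this length, 38.6% held either, 16.6% held ACGTG and 28.2% held GCGTG. The TEAD core GGAATG was found in 3 promoters of 2 members, Aldoa and Eno1, against 12.6% of all promoters. Members with several starts had more chances of a match, and a match is a description of letters, not of binding. The study found a large share of its YAP binding sites far from gene starts, which these windows cannot show. It also reported Eno1 among the genes that YAP activates directly.

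In epithelial cells, most members were higher with the YAP transgene and highest in EY. Comparing EY with N addressed what both transgenes together did. In this comparison 8 of 10 members rose, by log2 differences of 0.96 to 1.84, and Hk1 and Hk2 did not pass the test. Of all 13555 genes tested, 9.31% rose and 18.8% changed in either direction. The median log2 fold change of the members was 1.06, and that of all genes was -0.05.

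Slc2a1, the facilitative glucose transporter of most cells (chr4:119108711-119137983, plus strand, GENCODE vM21), measured 61.0 and 68.3 CPM in N, 77.8 and 59.1 in E, 57.1 and 76.8 in Y, and 134 and 140 in EY. Both EY libraries lay above the other 6, which overlapped one another. The log2 difference between EY and N was 1.09 ± 0.20 (SE; edgeR adjusted p = 0.0176), and that between Y and N was 0.05 ± 0.20 (adjusted p = 0.957).

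The hexokinases make glucose 6-phosphate. Hk1 (chr10:62268855-62379908, minus strand) measured 65.8 and 62.8 CPM in N, 56.7 and 59.2 in E, 67.3 and 60.4 in Y, and 55.7 and 73.2 in EY, and the groups overlapped. Its log2 difference between EY and N was 0.02 ± 0.16 (adjusted p = 0.954), a value whose sign turned with no filter on low counts, with keratins at least 1%, and without N2 or EY2. Hk2, the isoform that many tissues induce (chr6:82725025-82774454, minus strand), measured 57.5 and 67.5 CPM in N, 61.7 and 48.0 in E, 114 and 99.0 in Y, and 156 and 76.2 in EY. All 4 libraries with the YAP transgene were above the other 4, but the EY pair was split widely around the Y pair. The log2 difference between EY and N was 0.88 ± 0.32 (adjusted p = 0.0882).

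Pfkp, the platelet-type phosphofructokinase (chr13:6579768-6648777, minus strand), measured 76.2 and 62.9 CPM in N, 71.1 and 54.0 in E, 98.0 and 133 in Y, and 114 and 155 in EY. The Y and EY libraries overlapped, and both stood above N and E. Its log2 difference between EY and N was 0.96 ± 0.24 (adjusted p = 0.0346).

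Aldoa, the aldolase that splits fructose 1,6-bisphosphate (chr7:126795234-126800751, minus strand), measured 334 and 310 CPM in N, 315 and 318 in E, 527 and 680 in Y, and 816 and 1076 in EY. The N and E libraries lay close together, both Y libraries lay above them and both EY libraries above Y. The log2 difference between EY and N was 1.56 ± 0.19 (adjusted p = 0.00799).

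Gapdh, which oxidises glyceraldehyde 3-phosphate (chr6:125161715-125166467, minus strand), measured 1048 and 893 CPM in N, 835 and 780 in E, 1214 and 1511 in Y, and 1712 and 2281 in EY. The order of the groups was the same as for Aldoa, without overlap between Y and EY. Its log2 difference between EY and N was 1.04 ± 0.19 (adjusted p = 0.0174). Gapdh is a common reference gene for normalisation, and it was not level across these groups.

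Pgk1, which makes the first ATP of the pathway (chrX:106187100-106203699, plus strand), measured 201 and 175 CPM in N, 177 and 138 in E, 303 and 479 in Y, and 558 and 791 in EY. Among the members it had the greatest log2 difference between EY and N, 1.84 ± 0.27 (adjusted p = 0.011). Both EY libraries again lay above both Y libraries.

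Eno1, the enolase (chr4:150236721-150248879, plus strand), measured 204 and 262 CPM in N, 196 and 218 in E, 295 and 391 in Y, and 502 and 833 in EY. The EY pair was far apart, yet its lower library was above Y. The log2 difference between EY and N was 1.52 ± 0.27 (adjusted p = 0.0163). The related gene Eno1b had 13 to 301 epithelial UMIs per library, and reads shared between the copies could not be told apart.

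Pkm, the pyruvate kinase of most dividing tissues (chr9:59656368-59679375, plus strand), measured 647 and 587 CPM in N, 666 and 512 in E, 680 and 887 in Y, and 999 and 1467 in EY. The lower Y library was just above the highest library without the YAP transgene. Its log2 difference between EY and N was 1.0 ± 0.24 (adjusted p = 0.0296).

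Ldha, the lactate dehydrogenase subunit that favours lactate formation (chr7:46841475-46855627, plus strand), measured 468 and 472 CPM in N, 468 and 393 in E, 598 and 983 in Y, and 1008 and 1609 in EY. The higher Y library was close to the lower EY library. Its log2 difference between EY and N was 1.48 ± 0.29 (adjusted p = 0.02).

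**Figure D1:**
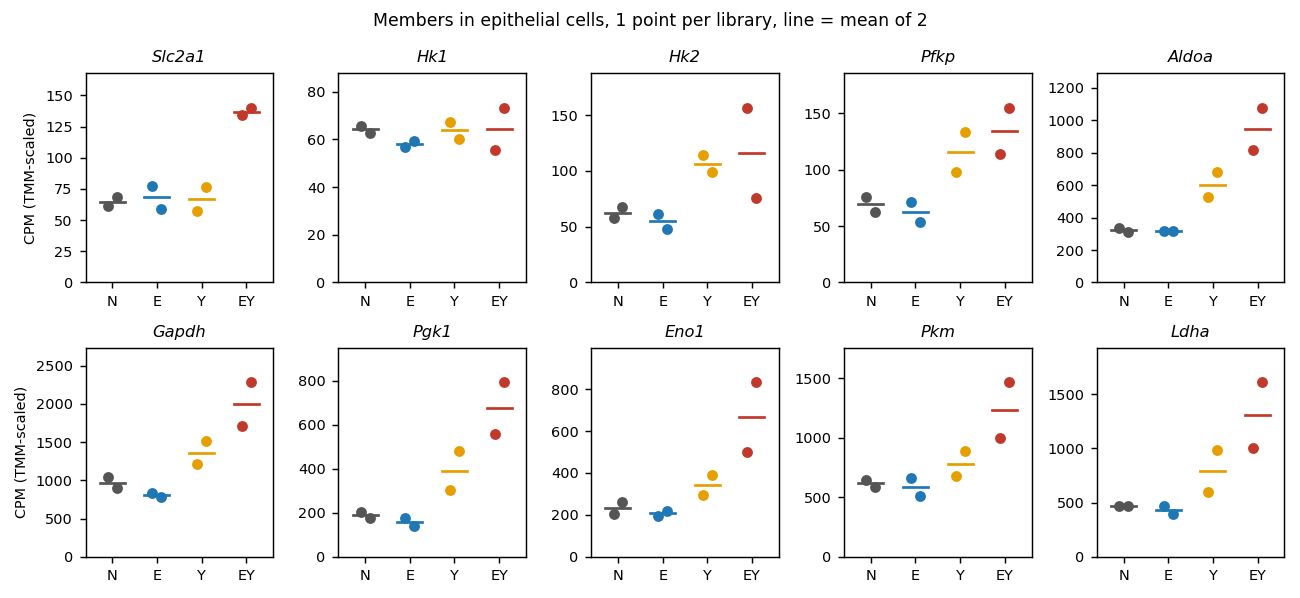
Levels of the 10 members in epithelial cells (y axis, CPM scaled by TMM, from 0), 1 panel per gene, with 1 point per library and a line at the mean of the 2 libraries of each group. Both EY points lie above both N points in 9 panels, and the Hk1 points overlap.

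The calls rested on few libraries. With N1, N2 or EY2 left out, 0 of the members were called in EY against N, but only 5, 271 and 25 of all genes were then called, and the median log2 fold change of the members was 1.17, 1.09 and 1.07. In epithelial cells with under 2 UMIs of the cell-cycle markers other than Hmgb2, 3 members were called, with a median of 1.02, where 857 of 11517 genes were called. That part held few EY cells, 44 in EY1 and 137 in EY2, against 1639 in N1 and 171 in N2. Both EY libraries were above both N libraries for 9 members, against 29.1% of all genes.

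In the main edgeR fit, neither transgene alone changed a member past the threshold. E against N gave 0 called members, with log2 differences from -0.27 to 0.09 and 0 members at an unadjusted p under 0.05, where 0.243% of all genes were called. DESeq2 called 0 as well. Y against N gave 0 called members where 0.457% of all genes were called, although 6 members were higher at an unadjusted p under 0.05, which 12.2% of all genes passed in either direction, and DESeq2 called 2 members and 3.37% of genes. More members passed in Y against N with no upper limits per cell and with no filter on low counts, as given at the end. The largest of these differences were those of Pgk1, 1.05 ± 0.27 (adjusted p = 0.159), Aldoa, 0.91 ± 0.19 (adjusted p = 0.099), and Hk2, 0.77 ± 0.32 (adjusted p = 0.391).

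EY against E, which adds the YAP transgene where E6-E7 was already on, gave 8 members higher, where 7.97% of all genes rose. The log2 differences reached 2.10 ± 0.28 for Pgk1 (adjusted p = 0.0119), and Hk1 and Hk2 were again not called, at 0.17 and 1.06. This comparison shares its EY libraries with EY against N, so the counts are not separate evidence. Its calls depended on which library was left out, while the members' median log2 difference ran from 1.11 to 1.44 over the fits without 1 library.

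EY against Y, which adds E6-E7 where the YAP transgene was on, gave 0 called members, where 0.0443% of all genes were called and 0.0221% rose. By the same test, 7 members were higher at an unadjusted p under 0.05, which 23.4% of all genes passed in either direction, and DESeq2 called 3 members and 6.49% of genes. Slc2a1 had the greatest difference, 1.03 ± 0.20 (adjusted p = 0.0644), followed by Eno1, 0.96 ± 0.27 (adjusted p = 0.103). Both EY libraries were above both Y libraries for 7 members, all but Hk1, Hk2 and Pfkp, against 22.4% of all genes. That order was not general in cells with under 2 UMIs of the cell-cycle markers other than Hmgb2, of which EY1 had 44. There EY1 lay below Y2 for Eno1 (363 against 394 CPM), Gapdh (1257 against 1381), Ldha (702 against 962) and Pkm (812 against 849). Slc2a1, Aldoa and Pgk1 kept both EY libraries above both Y libraries in those cells. Without EY1, 3 members were called, where 10.2% of genes were. Lifting the upper limits per cell raised EY1 from 170 to 481 epithelial cells, N2 from 415 to 741 and E2 from 553 to 944. The median log2 difference of the members between EY and Y was then 0.29 instead of 0.65. That between Y and N was 0.86 instead of 0.65, and Slc2a1 in EY against Y stood at 0.36.

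**Figure D2:**
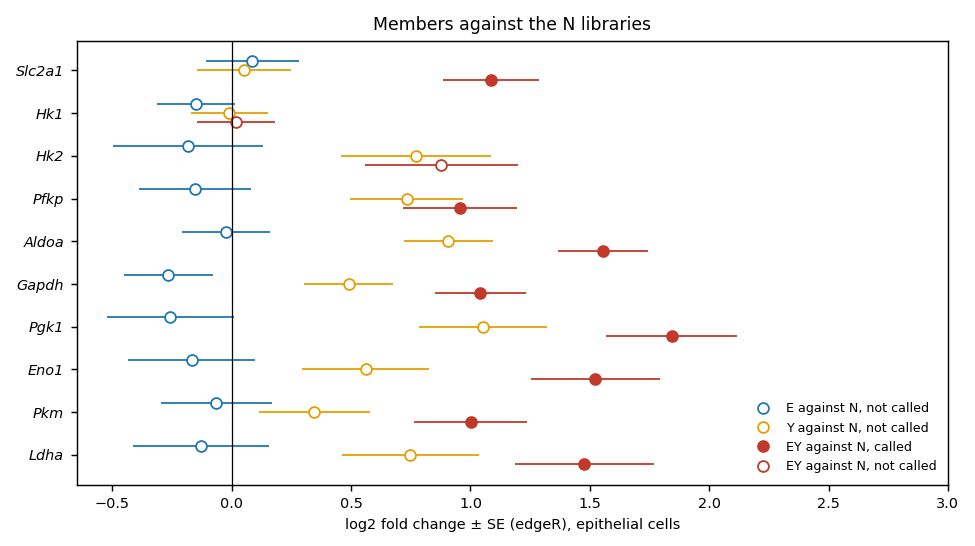
Log2 fold change with its SE (x axis, edgeR) of each member in epithelial cells for E, Y and EY against the same N libraries, with filled points where the adjusted p was under 0.05. The 8 filled points all belong to EY against N, and the E points lie between -0.27 and 0.09.

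Whether both transgenes together did more than their separate effects added up was tested with an interaction term. No member passed, with a lowest adjusted p of 0.353, and 0% of all genes were called. The estimates were positive for all 10 members, from 0.18 for Hk1 to 1.13 ± 0.37 for Eno1 (adjusted p = 0.376). At an unadjusted p under 0.05 there were 5 members and 11.5% of all genes, and DESeq2 called 0 members. The members' median was 0.77, and with no upper limits per cell it was 0.41.

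Averaged over the E6-E7 background, the YAP transgene raised 7 members in epithelial cells, where 5.49% of 13122 genes rose and 9.33% changed. The greatest log2 differences were those of Pgk1, 1.58 ± 0.26 (adjusted p = 0.0123), Aldoa, 1.25 ± 0.17 (adjusted p = 0.00632), and Ldha, 1.18 ± 0.25 (adjusted p = 0.0275). Hk2, Pfkp, Gapdh and Eno1 also rose, by 0.90 to 1.13. Slc2a1, 0.53 ± 0.21 (adjusted p = 0.136), Pkm, 0.71 ± 0.20 (adjusted p = 0.0597), and Hk1, 0.08 ± 0.12 (adjusted p = 0.668), were not called.

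All 4 libraries with the YAP transgene were above all 4 without it for 8 members, the exceptions being Slc2a1 and Hk1, against 9.67% of all genes. Without the TMM factors Pkm overlapped too, leaving 7 members against 8.28% of genes. The count of called members was 1 without E1, 2 without E2 or Y2, 3 without EY1, 4 without N1 or N2, 7 without EY2 and 8 without Y1. Over these fits 2.38% to 13.2% of all genes were called and the members' median ran from 0.81 to 1.07, against 0.92 with all libraries. The count was 5 in cells with under 2 UMIs of the cell-cycle markers other than Hmgb2, with a median of 0.87. The E6-E7 transgene, averaged over the YAP background, gave 0 called members, where 0.434% of genes were called, with 1 member, Slc2a1 at 0.56 ± 0.21 (adjusted p = 0.416), at an unadjusted p under 0.05 and 0 called by DESeq2.

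The members were also counted cell by cell. Summed over the members, the share of epithelial UMIs was 0.321% and 0.284% in N, 0.304% and 0.267% in E, 0.387% and 0.536% in Y, and 0.607% and 0.810% in EY. After each cell was thinned to 5000 UMIs, which left out 46 of the 170 cells of EY1 (27.1%) and 0.870% to 8.19% of those of the other libraries, the median cell held 15 and 13 member UMIs in N, 13 and 13 in E, 16 and 23 in Y, and 28 and 37 in EY. The lower quartile of the EY cells, 20 and 29 UMIs, was above the upper quartile of the N cells, 19 and 17 UMIs.

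**Figure D3:**
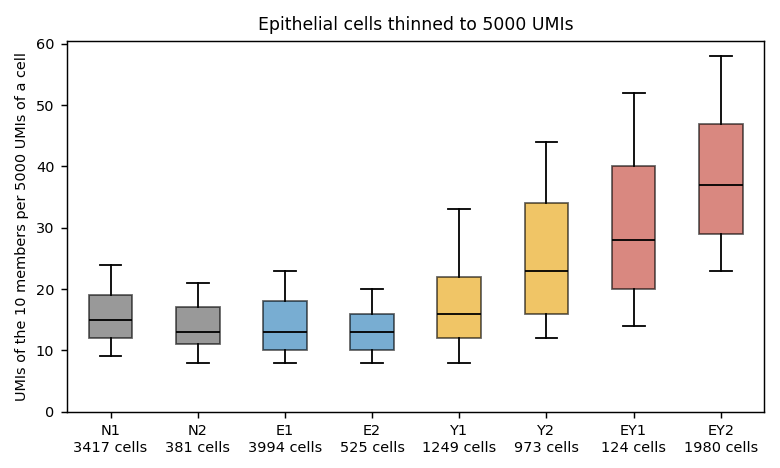
UMIs of the 10 members per epithelial cell thinned to 5000 UMIs (y axis), 1 box per library with the median, the quartiles and whiskers at the 10th and 90th percentiles, and the number of cells used under each name. Medians run from 13 in N2 and both E libraries to 37 in EY2.

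Within the epithelium, cells with at least 1% of UMIs from Krt13 and Krt4, called suprabasal, were compared with the rest, called basal. No basal marker was checked in either part, so basal here means only low in Krt13 and Krt4. Both parts came from the same 7 libraries, since EY1 had only 18 suprabasal cells. N2 had only 27, with a median of 1375 genes per cell. Aldoa, 0.51 ± 0.10 (adjusted p = 0.0015), Hk2, 0.47 ± 0.10 (adjusted p = 0.00219), Hk1, 0.38 ± 0.09 (adjusted p = 0.0062), Eno1, 0.33 ± 0.08 (adjusted p = 0.00619), Pgk1 and Ldha were higher in suprabasal cells, 6 members where 15.1% of all genes were higher, 19.7% lower and 34.8% different. Slc2a1, Pfkp, Gapdh and Pkm did not pass. Suprabasal cells made up 5.23% to 15.9% of epithelial cells. In the basal part alone, Pgk1 measured 200 and 172 CPM in N and 556 and 803 in EY. There Hk1 overlapped, at 62.7 and 62.1 CPM in N and 57.3 and 72.5 in EY.

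The other genes of glycolysis moved unevenly. Of 22 listed isoforms and enzymes that are not members, 13 were tested, and 5 rose and 3 fell in EY against N. Of all genes tested there, 9.31% rose and 18.8% changed in either direction. Tpi1, triose phosphate isomerase, measured 234 and 215 CPM in N, 240 and 198 in E, 350 and 567 in Y, and 571 and 844 in EY. It rose by 1.66 ± 0.28 (adjusted p = 0.0144).

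Pgam1, which moves the phosphate of 3-phosphoglycerate, rose by 1.10 ± 0.21 (adjusted p = 0.0182), and Pfkl, the liver-type phosphofructokinase, by 1.26 ± 0.27 (adjusted p = 0.024). Slc2a3, a high-affinity glucose transporter, rose by 5.58 ± 0.71 (adjusted p = 0.00867) from 0.533 and 0.238 CPM in N to 11.4 and 30.9 in EY, and Aldoc, a second aldolase, by 2.19 ± 0.42 (adjusted p = 0.0193), both from low levels.

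Slc2a4, the insulin-responsive transporter, and Bpgm, which makes 2,3-bisphosphoglycerate, fell. Bpgm measured 94.1 and 90.4 CPM in N, 88.0 and 79.5 in E, 80.8 and 66.2 in Y, and 47.5 and 53.2 in EY, a log2 difference of -0.87 ± 0.15 (adjusted p = 0.0165). Slc2a4 was near 4 CPM in N and fell by 3.33 on the log2 scale (adjusted p = 0.0201).

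Of 19 listed regulators and genes of pyruvate or lactate handling, 18 were tested, and 5 rose and 2 fell in EY against N. Beside them, 9.31% of all genes rose and 18.8% changed in either direction. Slc16a3, the lactate exporter MCT4, measured 1.44 and 2.62 CPM in N, 3.97 and 1.67 in E, 17.9 and 51.2 in Y, and 62.2 and 124 in EY. Its log2 difference for the YAP transgene was 4.63 ± 0.49 (adjusted p = 0.00295). Pfkfb3, which makes the activator of phosphofructokinase, measured 1.46 and 1.19 CPM in N, 1.15 and 0.877 in E, 5.51 and 9.15 in Y, and 18.3 and 15.3 in EY.

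Pfkfb3 rose by 3.20 ± 0.37 for the YAP transgene (adjusted p = 0.00331). Pdk1, which inhibits pyruvate dehydrogenase, rose by 0.94 ± 0.18 (adjusted p = 0.0199), and Tigar, which lowers the same activator, by 0.81 ± 0.21 (adjusted p = 0.0477). Fbp2, the muscle fructose bisphosphatase of gluconeogenesis, fell by 2.44 ± 0.49 (adjusted p = 0.0234).

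Related pathways were counted in the same fits. For the YAP transgene, 6 of 15 tested hypoxia response genes rose and none fell, beside the 5.49% of all genes that rose. Egln3, a prolyl hydroxylase induced by low oxygen, measured 9.78 and 7.74 CPM in N, 6.53 and 5.34 in E, 95.5 and 296 in Y, and 119 and 108 in EY, a log2 difference of 4.36 ± 0.35 (adjusted p = 0.00176). Bnip3, a mitophagy receptor, rose by 2.12 ± 0.26 (adjusted p = 0.00398). Egln3 was highest in Y2 and not in EY, unlike most members.

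Of 20 respiratory chain genes, 1 rose, Ndufa4 by 0.95 ± 0.21 (adjusted p = 0.0312), and the median of the list was 0.06. A count of 1 in 20 is near the 5.49% of all genes that rose. Cycs, cytochrome c, stood at 0.47 ± 0.15 (adjusted p = 0.0862). Of 7 pentose phosphate genes, 1 fell, where 9.33% of all genes changed in either direction, a share that includes the 5.49% that rose. It was Taldo1, by 0.39 on the log2 scale (adjusted p = 0.0476), and Pgd stood at 0.53 ± 0.15 (adjusted p = 0.0577). Of the 9 tested transcription factors and co-activators, 3 rose, beside the 5.49% of all genes that rose. They include Tead1 by 1.51 ± 0.17 (adjusted p = 0.00301) and Yap1 by 2.73 ± 0.29 (adjusted p = 0.00295). The transgene encodes a form of YAP, so the Yap1 rise is not read as a response. Whether the Yap1 counts include transgene reads was not tested. None of 10 cell-cycle markers was called, with a median of 0.37.

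Over the 8 libraries, the pattern of the members' mean was most like that of Emc6 (Pearson r 0.992), Wipi2 (0.991), Npm1 (0.991), Shroom3 (0.990) and Kcmf1 (0.988) among 5095 genes. Of the members, Gapdh and Pgk1 followed their mean most closely, at 0.993 each, and Hk1 the least, at 0.398. The points share libraries, depth and the scaling, and these values describe the libraries only.

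Myeloid and T cells were compared with epithelial cells of the same libraries, in fits that average over the 4 groups. Of the markers that no gate used, Fcer1g and Tyrobp summed to 2873 to 6327 CPM in myeloid cells, 15.4 to 205 in T cells and 1.78 to 42.7 in epithelial cells. Cd2, Lck, Trac and Trbc2 summed to 1846 to 2819 CPM in T cells, 7.78 to 71.7 in myeloid cells and 4.28 to 31.8 in epithelial cells. In myeloid cells 8 members were higher than in epithelial cells, where 36.9% of all genes were higher, 41.2% were lower and 78.2% differed. The log2 differences were 0.87 ± 0.13 for Hk2 (adjusted p = 5.08e-06), 0.86 ± 0.13 for Aldoa (adjusted p = 1.11e-05) and 0.42 ± 0.15 for Pkm (adjusted p = 0.0148). Ldha, at 0.02 ± 0.14, and Hk1, at -0.42 ± 0.25 (adjusted p = 0.142), were not called.

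In T cells, Slc2a1 was lower than in epithelial cells, by a log2 value of -1.64 ± 0.25 (adjusted p = 7.96e-06), Hk2 by a log2 value of -1.56 ± 0.14 (adjusted p = 6.16e-09) and Pkm by -0.49 ± 0.15 (adjusted p = 0.00619). Those 3 members were lower where 37.5% of all genes were lower. Pfkp was higher, by 0.51 ± 0.17 (adjusted p = 0.0119), where 33.8% were higher and 71.3% differed. Against myeloid cells, T cells were lower in 7 members, where 29.4% of all genes were lower, 32.7% higher and 62.1% different, led by Hk2 at -2.43 ± 0.14 (adjusted p = 3.21e-11) and Slc2a1 at -2.42 ± 0.25 (adjusted p = 1.3e-07).

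**Figure D4:**
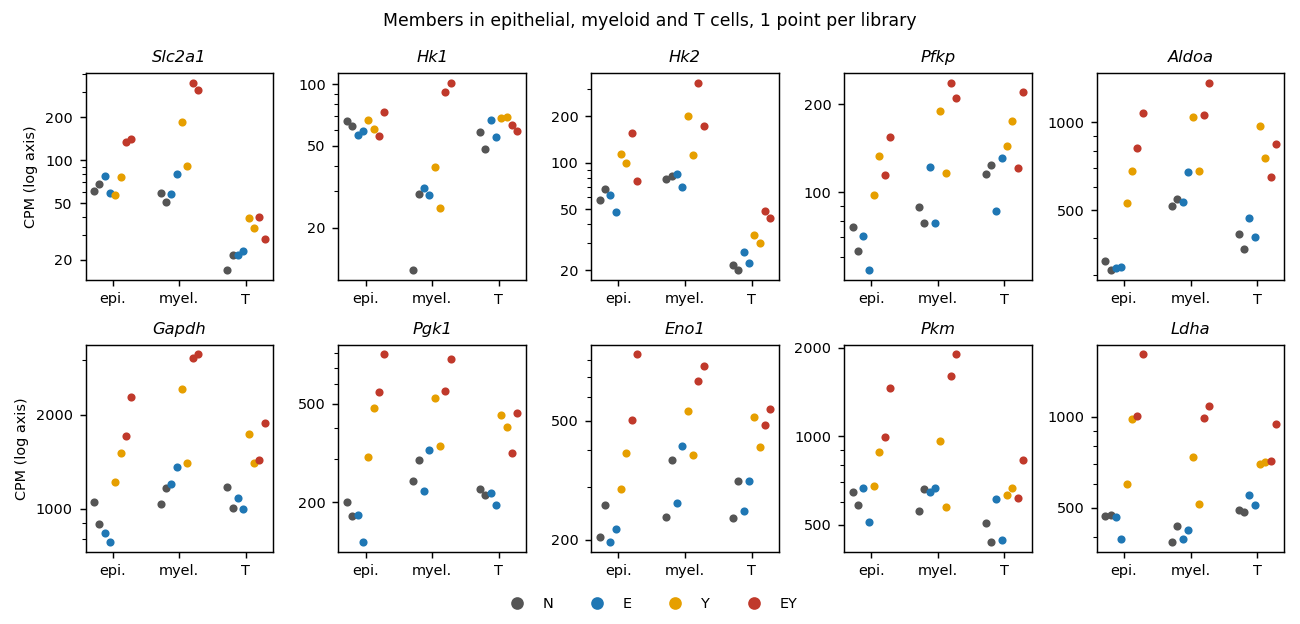
Levels of the members (y axis, CPM on a log axis, each panel with its own range) in epithelial, myeloid and T cells, 1 point per library, coloured by group. Slc2a1 and Hk2 are lower in T cells than in the other classes, and the EY points of Slc2a1 in myeloid cells, 350 and 310 CPM, are the highest of that panel.

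The YAP contrast was then asked of the immune cells, which lie in the same tissue. In myeloid cells 6 members rose, where 3.39% of 10159 genes rose and 5.46% changed. Slc2a1 measured 58.8 and 50.9 CPM in N, 58.1 and 80.1 in E, 185 and 91.0 in Y, and 350 and 310 in EY, without overlap between the libraries with and without the transgene. Its log2 difference was 1.79 ± 0.29 (adjusted p = 0.0231).

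Hk2, at 1.34 ± 0.29 (adjusted p = 0.0382), Gapdh, at 1.03 ± 0.22 (adjusted p = 0.0378), Pfkp, Ldha and Aldoa rose too. Hk1 measured 12.3 and 29.0 CPM in N, 31.1 and 29.0 in E, 39.3 and 24.9 in Y, and 91.9 and 102 in EY, and its difference of 1.12 ± 0.32 had an adjusted p of 0.0708. The EY pair was high and the other libraries overlapped. For 6 members all 4 libraries with the transgene were above the other 4, against 6.61% of genes. Without the TMM factors, an alternative chosen after seeing the data, these were 3 members, with Aldoa, Gapdh and Pgk1 overlapping, against 2.25% of genes.

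The myeloid cells were not of the same makeup in all libraries, and the TMM factors of EY, 0.694 and 0.755, stood below the 1.02 to 1.17 of the others. Neutrophils were taken as myeloid cells with at least 2% of UMIs from S100a8 and S100a9. They were 0.730% and 8.57% of the myeloid cells in N, 0% and 19.9% in E, 18.9% and 2.84% in Y, and 66.8% and 49.0% in EY. In the non-neutrophil part Slc2a1 measured 63.5 and 53.5 CPM in N, 62.9 and 85.0 in E, 181 and 96.4 in Y, and 346 and 276 in EY. Neutrophil markers in that part summed to 52.6 to 398 CPM without the YAP transgene and to 168 to 4817 CPM with it. The part that makeup plays in these values was not tested. No member was called without N1, E1, E2, Y1, EY1 or EY2, or with no limit on keratin UMIs, fits that called 0% to 0.591% of genes and gave the members a median of 0.92 to 1.02, whereas 7 were called without N2 and all 10 without Y2. Epithelial keratins in myeloid cells were 0.888% to 7.22% of the epithelial level of the same library, highest in EY2.

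In T cells 0 members were called, where 0.0518% of 9647 genes were called, but 9 were higher at an unadjusted p under 0.05, which 10.9% of all genes passed in either direction, and DESeq2 called 7 members and 1.60% of genes. Aldoa measured 414 and 368 CPM in N, 469 and 403 in E, 974 and 756 in Y, and 652 and 840 in EY. All libraries with the YAP transgene were above the rest, with Y1 highest, and the log2 difference was 0.97 ± 0.15 (adjusted p = 0.0651). Pgk1 stood at 0.94 ± 0.14 (adjusted p = 0.0651). For 8 members, all but Hk1 and Pfkp, the libraries with and without the transgene did not overlap, against 3.52% of genes, and without the TMM factors this held for 7, with Pkm overlapping, against 2.30%. Without Y2, 4 members were called. Over the fits without 1 library, 0% to 1.02% of genes were called and the members' median ran from 0.64 to 0.74. Epithelial keratins in T cells were 1.42% to 7.21% of the epithelial level, highest in EY2.

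The YAP contrast was compared between classes in a model with a term for each library. It was smaller in epithelial than in myeloid cells for Slc2a1, by a log2 value of -1.25 ± 0.31 (adjusted p = 0.0196), and for Hk1, by -1.06 ± 0.31 (adjusted p = 0.0366), 2 members where 5.22% of 13576 genes were smaller and 11.7% differed in either direction. Without neutrophils, 1 member was called. None was called without E1 or EY1, and 4.38% to 12.1% of genes were called over the fits without 1 library. Without Y1, Slc2a1 (-0.95) and Hk1 were not called, and the 2 members then called, Aldoa and Pgk1, had the larger effect in epithelial cells. Against T cells 0 members were called, where 1.81% of genes were called, with 0.619% of all genes smaller in epithelial cells, and 2 members had an unadjusted p under 0.05. The greatest of these differences were those of Pgk1, 0.67 ± 0.29 (adjusted p = 0.274), and Ldha, 0.60 ± 0.24 (adjusted p = 0.233).

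**Figure D5:**
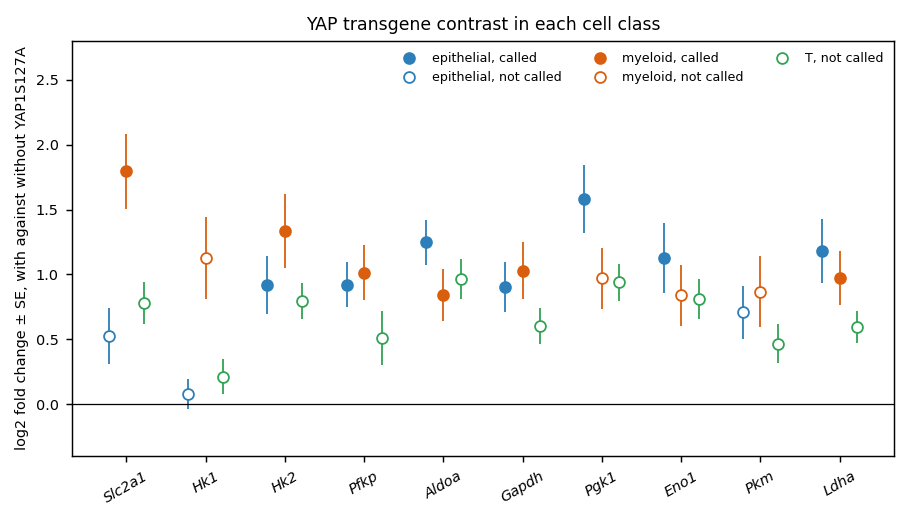
Log2 fold change with its SE (y axis, edgeR) of each member for libraries with against those without the YAP transgene in epithelial, myeloid and T cells, filled where the adjusted p was under 0.05. The Slc2a1 point is at 1.79 in myeloid and 0.53 in epithelial cells, and no T cell point is filled.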

How the data were processed

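The deposited files hold counts: UMI counts per gene and cell barcode that the authors made with Cell Ranger against mm10, as the labels' processing notes name them, without normalisation. Reads and cells were not reprocessed. Cells were kept if they had 1000 to 5500 genes, no more than 30000 UMIs and a mitochondrial share of up to 7%. Epithelial cells were gated as given above, T cells by at least 2 UMIs of Cd3 genes and myeloid cells by at least 3 UMIs of myeloid genes, the immune classes with a limit on keratin UMIs. No doublet caller was run, so doublets may remain.

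Counts were summed per library and class and tested with edgeR 4.0.16 (R 4.3.3; filterByExpr, TMM, quasi-likelihood F test, Benjamini-Hochberg adjustment over all genes, adjusted p under 0.05), with DESeq2 1.42.0 as an alternative. The script was tested on simulated data. Comparisons between cell classes had a term for each library. SEs were derived from the F statistic. Tables were made with Python 3.11.15, numpy 2.4.6, pandas 2.3.3 and scipy 1.17.1, and plots with matplotlib 3.10.9.

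All members are named, then up to 12 listed glycolysis genes and regulators called in EY against N or for the YAP transgene, in order of adjusted p (15 were called), 2 genes of each other list by adjusted p, the 5 genes most like the members, and promoters of 4 members. The members and gene lists were chosen with earlier results of these data known. The rule among several promoter starts was changed after the motif matches were seen, and the windows of every member were counted whichever was printed. Libraries were numbered in accession order within a group. Intervals and p-values cover the spread between libraries only.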

Additional observations from a re-analysis of the deposited data

Results flagged for a closer look

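Slc2a1 and Hk1 were flagged because the effect of the YAP transgene differed between epithelial and myeloid cells of the same libraries by the test of the difference itself. For Slc2a1 the epithelial minus myeloid difference was -1.25 on the log2 scale (SE 0.31, edgeR adjusted p = 0.0196), with effects of 0.53 in epithelial and 1.79 in myeloid cells. For Hk1 it was -1.06 (SE 0.31, adjusted p = 0.0366), with effects of 0.08 and 1.12. Without neutrophils the differences were -1.10 for Slc2a1, still called, and -0.82 for Hk1, no longer called. Slc2a1 was no longer called without E1 (-1.13), Y1 (-0.95) or EY1 (-1.14), and Hk1 lost its call in 9 alternatives.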

How the results depend on the processing

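Libraries of different groups were not paired, because the labels give no replicate numbers that would link them. Comparisons between cell classes and between layers did have a term for each library. No alternative turned the sign of a called value of a member (0 of 2460 member values, 79 uncalled ones did). Of 246 recomputed counts of called members, 196 kept their side of the threshold and stayed within 1.5 times, and the cause of the other changes was not tested. With no filter on low counts, where 3.09% to 11.3% of genes were called in these comparisons, the counts were 5 in Y against N, 6 in EY against Y, 2 for the interaction, 1 for the E6-E7 transgene, and 10 in myeloid and 7 in T cells for the YAP transgene. DESeq2 called 2 in Y against N, 3 in EY against Y, 10 in myeloid and 7 in T cells. With no upper limits per cell, 5 were called in Y against N, 4 for the YAP effect in epithelial against myeloid cells (Pgk1 with the larger epithelial effect) and 2 against T cells. With keratins at least 1%, EY against Y gave 1. With a minimum of 200 genes, with no keratin limit or without neutrophils, the epithelial against myeloid difference gave 1 each, and with no keratin limit the myeloid YAP contrast gave 0. In cells with under 2 cycling UMIs, which leaves out EY1 with too few cells, EY against N, EY against E and the YAP transgene gave 0 each, with members' medians of 1.26, 1.31 and 0.91 and with 0.595%, 0.136% and 1.28% of genes called. Without Hmgb2 among the markers, chosen after seeing the data, EY against N gave 3.

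Leaving out each library gave 0 to 8 called members in EY against N and in EY against E, 0 to 3 in EY against Y, and 1 to 8 for the YAP transgene in epithelial, 0 to 10 in myeloid and 0 to 4 in T cells. It gave 0 to 3 for the epithelial against myeloid difference, of which the 2 without Y1, Aldoa and Pgk1, were reversed, larger in epithelial cells, and 0 to 1 for the epithelial against T difference. For Hk1, EY against N, epithelial cells, the value was -0.00867 without the filter and -0.027 with keratins at least 1%, and ran from -0.22 to 0.21 without a library, and its YAP value was -0.17 under 2 cycling UMIs and ran from -0.026 to 0.13 without a library. Under 2 cycling UMIs, Tigar in EY against N was -0.68 and Cycs for the YAP transgene -0.11. With 2 libraries per group and 170 epithelial cells in EY1, smaller differences may be missed.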
